A study of Mus musculus with 18 samples.

Results

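Expression of 8 genes that mark neurons of the vestibular ganglion was followed in the vestibular organ of Igf1-/- and Igf1+/+ mice. The genes are Nefl, Nefm, Nefh, Prph, Sncg, Isl1, Pou4f1 and Scrt2. They were listed by name, with no threshold on a measured value but with earlier results of these data known, and all 8 were among the 19938 genes measured, each through 1 probe set. Total RNA of the dissected organ was measured in embryos (E18.5) and in young (P15) and adult (P90) mice on Affymetrix Mouse Gene 1.1 ST arrays, which read a gene through several short probes. The groups were E18.5 Igf1-/- and E18.5 Igf1+/+ embryos, P15 Igf1-/- and P15 Igf1+/+ mice, and P90 Igf1-/- and P90 Igf1+/+ mice, with 3 arrays in each of the 6 groups. All came from a mixed Mf1 and 129/sv background and were perfused with paraformaldehyde under pentobarbiturate before dissection. The mutant lacks Igf1, which encodes the secreted insulin-like growth factor 1. The labels call the arrays biological replicates but do not say how many animals each holds, so every p-value measures the spread between these arrays.

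Vestibular ganglion neurons are bipolar cells that connect the hair cells of the balance organs with the brainstem and cerebellum. Their cell bodies and peripheral fibres lie in or beside the dissected tissue, and their axons are filled with neurofilaments, polymers of a light, a medium and a heavy subunit. Isl1 and Pou4f1 encode homeodomain transcription factors that act in developing sensory neurons, and the heavy neurofilament subunit accumulates as axons mature and thicken. In mice, insulin-like growth factor 1 is known for supporting neurons of the auditory ganglion, the neighbour of the vestibular ganglion. Most of the 8 genes are also active in other neurons, including those of the brainstem.

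Levels are in log units of a base that was not stated, and a difference of 1 unit means 2.72-fold if natural logs were taken and 2-fold if log2. Deposited array medians ran from 3.88 to 4.82, and the arrays were put on a common scale before any comparison. A test passed at an adjusted p under 0.05 in the limma fit over all genes. Igf1 was at 6.40, 6.88 and 6.51 in E18.5 Igf1-/- arrays 1, 2 and 3, against 7.02, 7.07 and 6.98 in Igf1+/+. At P15 it was at 5.54, 5.69 and 5.42 in Igf1-/-, against 5.87, 6.11 and 5.89 in Igf1+/+, and at P90 at 5.43, 5.51 and 5.31 in Igf1-/-, against 5.63, 5.39 and 5.56 in Igf1+/+. Signal thus remained in every Igf1-/- array, and since it is not known here which exons the probes read and which were deleted, these levels do not check the genotype labels. Along the third principal component 4 arrays (E18.5 Igf1-/- 2 and 3 and P90 Igf1+/+ 1 and 2) lay at 13.5 to 18.8, against -25.0 to -7.96 for the other 8 arrays of their ages, with the P15 arrays between at 0.83 to 9.92. At P90 the genotypes also differed in sex-linked signal, with Xist at 7.42 to 7.91 in Igf1-/- and 1.86 to 3.33 in Igf1+/+. The mean of 3 Y-linked genes was 2.00, 5.44 and 5.49 in P90 Igf1-/- arrays 1, 2 and 3, against 6.12, 6.12 and 6.32 in Igf1+/+. Igf1-/- arrays 2 and 3 thus held both Xist and Y-linked signal.

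The sequence just before and after the start of transcription was looked up for the members in the RefSeq promoter table of GRCm38.p6, which held 4 of the 8 (Prph, Isl1, Pou4f1 and Sncg). Nefl, Nefm, Nefh and Scrt2 are named only. The windows of these 4 are shown because the promoter table held no other member. Each holds 250 bases before and 50 after the start, 5′ to 3′ on the strand of the gene, with the matched motif in capitals. Prph lies at chr15:99054924-99055223 on the plus strand, Isl1 at chr13:116309639-116309938 on the minus strand, Pou4f1 at chr14:104467950-104468249 on the minus strand and Sncg at chr14:34374620-34374919 on the minus strand.
Prph: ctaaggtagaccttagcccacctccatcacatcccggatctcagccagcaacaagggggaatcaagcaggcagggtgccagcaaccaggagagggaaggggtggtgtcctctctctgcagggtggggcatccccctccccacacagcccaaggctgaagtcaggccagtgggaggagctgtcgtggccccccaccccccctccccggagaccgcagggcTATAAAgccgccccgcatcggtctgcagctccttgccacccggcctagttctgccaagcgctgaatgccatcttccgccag
Isl1: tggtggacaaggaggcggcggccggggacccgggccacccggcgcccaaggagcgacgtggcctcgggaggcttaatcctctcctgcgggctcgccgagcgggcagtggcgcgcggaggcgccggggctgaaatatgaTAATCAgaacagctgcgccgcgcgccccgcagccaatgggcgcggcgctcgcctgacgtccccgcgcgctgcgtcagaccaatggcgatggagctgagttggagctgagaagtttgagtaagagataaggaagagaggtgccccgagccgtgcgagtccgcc
Pou4f1: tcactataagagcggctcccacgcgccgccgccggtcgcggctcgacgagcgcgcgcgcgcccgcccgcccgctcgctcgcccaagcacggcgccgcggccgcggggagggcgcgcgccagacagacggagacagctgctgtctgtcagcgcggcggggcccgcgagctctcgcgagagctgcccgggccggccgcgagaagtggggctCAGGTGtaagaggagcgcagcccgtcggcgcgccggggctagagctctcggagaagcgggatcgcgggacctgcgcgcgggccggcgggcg
Sncg: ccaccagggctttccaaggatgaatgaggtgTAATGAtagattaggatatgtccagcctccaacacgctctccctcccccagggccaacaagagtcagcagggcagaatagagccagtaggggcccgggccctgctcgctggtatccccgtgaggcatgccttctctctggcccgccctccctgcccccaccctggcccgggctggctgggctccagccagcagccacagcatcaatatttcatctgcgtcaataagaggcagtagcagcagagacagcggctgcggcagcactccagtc
The letters TATAAA (the TATA box), CAGGTG (an E-box) and TAATNA (a core bound by many homeodomain proteins) were searched on both strands, and no 2 matches overlapped. TATAAA was found in Prph at position -31 from the start, and 13.6% of the 32851 windows of the table hold it. TAATNA was found in Isl1 at -112 and in Sncg at -219, against 26.5% of all windows, and CAGGTG was found only in Pou4f1, at -41, against 20.2%. The windows of Prph, Isl1, Pou4f1 and Sncg held 64.7%, 69.0%, 78.3% and 61.3% G and C, against a median of 52.7% over all windows. These matches describe the letters of the windows and were not tested as binding sites.

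Nefl encodes the light neurofilament subunit, on which the filament is built. It was at 5.48, 6.29 and 4.79 in E18.5 Igf1-/- arrays 1, 2 and 3, against 5.30, 4.75 and 4.90 in E18.5 Igf1+/+. At P15 it was at 5.84, 5.83 and 6.14 in Igf1-/-, against 5.60, 5.96 and 5.92 in Igf1+/+. At P90 it was at 6.14, 6.13 and 6.0 in Igf1-/-, against 6.29, 5.81 and 6.08 in Igf1+/+. The genotypes overlapped at each age, and the 6 arrays of E18.5 spread more widely than those of P15 or P90, with Igf1-/- array 2 on top.

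Nefm encodes the medium subunit and neighbours Nefl on the chromosome. Its levels were 5.46, 6.29 and 4.74 in E18.5 Igf1-/- arrays 1, 2 and 3, against 5.41, 5.07 and 5.0 in E18.5 Igf1+/+. The P15 levels were 5.66, 5.51 and 5.88 in Igf1-/-, against 5.29, 5.85 and 5.66 in Igf1+/+. The P90 levels were 6.10, 5.97 and 5.71 in Igf1-/-, against 5.95, 5.72 and 5.84 in Igf1+/+. As with Nefl, all 3 ages overlapped between genotypes, and E18.5 Igf1-/- arrays 2 and 3 were the highest and the lowest of that age.

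Nefh encodes the heavy subunit. It stood at 4.86, 5.52 and 4.88 in E18.5 Igf1-/- arrays 1, 2 and 3, against 4.84, 4.70 and 4.65 in E18.5 Igf1+/+. At P15 the levels were 5.85, 5.53 and 5.96 in Igf1-/-, against 5.41, 5.90 and 5.64 in Igf1+/+. At P90 they were 6.11, 6.07 and 5.96 in Igf1-/-, against 6.34, 6.18 and 5.84 in Igf1+/+. The 3 Igf1-/- arrays of E18.5 lay above the 3 Igf1+/+ arrays, the lowest of them by little, whereas P15 and P90 overlapped. The group means of Nefh followed the order of age in both genotypes, lowest at E18.5, and the neighbouring means of the 2 genotypes at P15 and at P90 differed by less than 1 SD of either group (gaps of 0.13 and 0.07).

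Prph encodes peripherin, an intermediate filament protein of peripheral neurons that assembles with the neurofilament subunits. It was at 5.53, 6.05 and 4.34 in E18.5 Igf1-/- arrays 1, 2 and 3, against 5.01, 4.81 and 4.93 in E18.5 Igf1+/+. At P15 it was at 5.11, 4.61 and 4.76 in Igf1-/-, against 4.20, 4.44 and 4.98 in Igf1+/+. At P90 it was at 5.12, 5.37 and 5.20 in Igf1-/-, against 5.76, 3.92 and 5.02 in Igf1+/+. The spread within E18.5 Igf1-/- (SD 0.88) and P90 Igf1+/+ (SD 0.93) exceeded every difference between neighbouring group means, of which the largest was 0.31. Set against Nefl within each array, Prph gave differences of -0.45 to 0.05 in E18.5 Igf1-/- and -0.28 to 0.06 in E18.5 Igf1+/+. After birth the same difference was -1.38 to -0.73 in P15 Igf1-/-, -1.51 to -0.94 in P15 Igf1+/+, -1.02 to -0.76 in P90 Igf1-/- and -1.89 to -0.53 in P90 Igf1+/+. Each of the 12 postnatal arrays was below each of the 6 embryonic arrays in this difference, by little at the edge. The closest were -0.53 in P90 Igf1+/+ array 1 and -0.45 in E18.5 Igf1-/- array 3. How often other gene pairs separate like this was not computed, and the difference was not tested. Prph itself passed no test between ages.

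Sncg encodes gamma-synuclein, an abundant protein of sensory neuron axons. Its levels were 6.12, 6.87 and 5.64 in E18.5 Igf1-/- arrays 1, 2 and 3, against 5.74, 5.67 and 5.56 in E18.5 Igf1+/+. At P15 they were 6.26, 5.67 and 5.95 in Igf1-/-, against 5.05, 5.75 and 5.70 in Igf1+/+. At P90 they were 6.84, 6.65 and 6.62 in Igf1-/-, against 7.22, 6.12 and 6.43 in Igf1+/+. The P90 arrays lay above the P15 arrays of the same genotype without overlap, while the genotypes overlapped at each age.

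Isl1 encodes a LIM homeodomain factor of developing sensory and motor neurons. It was at 5.43, 5.52 and 5.29 in E18.5 Igf1-/- arrays 1, 2 and 3, against 5.30, 5.16 and 5.12 in E18.5 Igf1+/+. At P15 it was at 4.53, 4.25 and 4.31 in Igf1-/-, against 3.42, 3.95 and 4.14 in Igf1+/+. At P90 it was at 4.89, 4.91 and 4.55 in Igf1-/-, against 4.80, 3.94 and 4.26 in Igf1+/+. The genotypes did not overlap at P15, with Igf1-/- on top, and at P90 and E18.5 they overlapped through 1 Igf1+/+ array each. E18.5 held the highest levels in both genotypes.

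Pou4f1 encodes the POU homeodomain factor Brn3a. Its levels were the dimmest of the members relative to all genes, since only 12.2% of genes had a lower highest group mean, and its differences carry more doubt. They were 2.88, 3.12 and 2.09 in E18.5 Igf1-/- arrays 1, 2 and 3, against 2.60, 1.97 and 2.60 in E18.5 Igf1+/+. The P15 levels were 3.01, 3.00 and 2.46 in Igf1-/-, against 1.88, 2.74 and 2.69 in Igf1+/+, and the P90 levels 2.98, 3.10 and 2.50 in Igf1-/-, against 2.65, 2.79 and 2.72 in Igf1+/+. The genotypes overlapped at each age, and the 6 group means lay between 2.39 and 2.86.

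Scrt2 encodes a zinc finger repressor that is switched on in newly formed neurons. It was at 4.49, 5.03 and 4.95 in E18.5 Igf1-/- arrays 1, 2 and 3, against 4.38, 4.49 and 4.31 in E18.5 Igf1+/+. At P15 it was at 4.19, 4.35 and 4.24 in Igf1-/-, against 4.17, 4.36 and 3.85 in Igf1+/+. At P90 it was at 3.90, 4.12 and 4.28 in Igf1-/-, against 4.38, 4.86 and 4.09 in Igf1+/+. Igf1-/- lay above Igf1+/+ at E18.5, though array 1 and Igf1+/+ array 2 were level to the second decimal. The other ages overlapped.

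**Figure D1:**
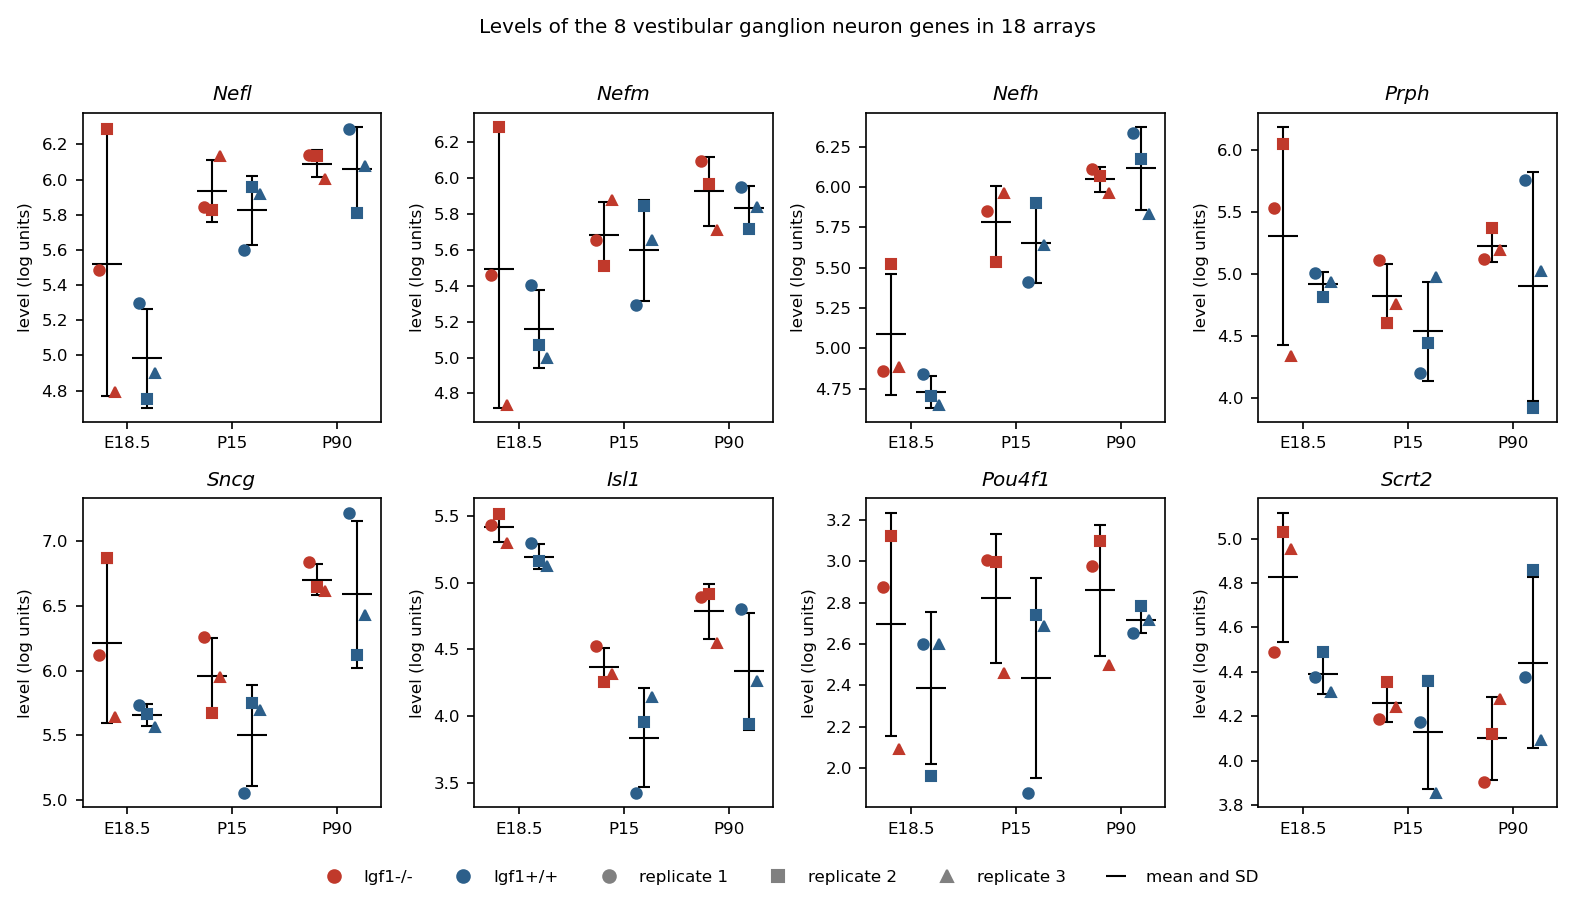
Level in log units (vertical axis, a separate scale for each gene) of the 8 genes at E18.5, P15 and P90 in Igf1-/- (red) and Igf1+/+ (blue), with 1 point per array and the mean and SD of 3 arrays in black. Nefh was higher and Isl1 lower at P15 than at E18.5 in both genotypes, and E18.5 Igf1-/- replicate 2 was the highest of its age for all 8 genes.

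Between genotypes, the members had higher means in Igf1-/- at most ages, but none of the 8 passed the test at E18.5, P15 or P90 or on average over the ages. At E18.5 all 8 means were higher in Igf1-/-, where 45.6% of all genes were, with a median difference of 0.37 against -0.02 over all genes. At P15 all 8 were again higher (53.7% of all genes), with a median of 0.21 against 0.01 over all genes. At P90 6 of 8 were higher (53.6% of all genes), with a median of 0.10 against 0.01. In bulk tissue, a change in the number of neurons and a change in transcript per neuron cannot be told apart. In the limma fit over 19938 genes the test was passed upward by 0.0602%, 0.015% and 0.241% of genes at E18.5, P15 and P90 and downward by 0.0201%, 0% and 0.0552%. Averaged over the ages it was passed by 0.0201% of genes upward and 0.015% downward. At an unadjusted p under 0.05, 1 member was higher at E18.5 (Scrt2), 1 at P15 and at P90 (Isl1), and 2 in the average (Isl1 and Sncg; 8 of 8 means higher, 53% of all genes), with 6.49%, 3.7%, 6.74% and 4.17% of all genes in that direction.

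The E18.5 differences of the structural genes were 0.54 ± 0.27 (SE) for Nefl, 0.34 ± 0.27 for Nefm, 0.36 ± 0.18 for Nefh, 0.39 ± 0.41 for Prph and 0.56 ± 0.30 for Sncg, with adjusted p of 0.42, 0.6, 0.42, 0.7 and 0.44. Their 95% intervals all held 0, from -0.03 to 1.11 for Nefl and from -0.08 to 1.19 for Sncg. By P90 Nefl, Nefm and Nefh differed by 0.03, 0.09 and -0.07, with intervals of -0.54 to 0.60, -0.49 to 0.67 and -0.45 to 0.31. Differences of up to about these bounds in either direction thus remained possible for the neurofilaments at P90.

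Isl1 had the smallest p of the members in the average over ages. It differed by 0.22 ± 0.20 at E18.5 (adjusted p = 0.64), 0.53 ± 0.20 at P15 (adjusted p = 0.59) and 0.45 ± 0.20 at P90 (adjusted p = 0.42). The average was 0.40 ± 0.11 (interval 0.15 to 0.64), with an unadjusted p of 0.0033 and an adjusted p of 0.29 in the limma fit, so it failed the correction. Leaving out 1 array at a time kept this average between 0.33 and 0.48, whereas the P15 value fell to 0.32 without Igf1+/+ array 1 and the P90 value to 0.25 without Igf1+/+ array 2. Sncg averaged 0.38 ± 0.17 (unadjusted p = 0.045, adjusted p = 0.63).

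Scrt2 was the member whose genotype difference varied most with age, at 0.43 ± 0.18 in E18.5 (adjusted p = 0.36), 0.13 ± 0.18 in P15 and -0.34 ± 0.18 in P90 (adjusted p = 0.51). In the limma fit, the F-test that the differences are equal across ages gave Scrt2 an unadjusted p of 0.029 and an adjusted p of 0.3. No member passed that F-test, against 0.256% of all genes, and 14.5% of genes had an unadjusted p under 0.05. When the model had a term for the 4 arrays, the P90 difference of Scrt2 became 0.0014. Pou4f1 differed by 0.31 ± 0.28, 0.38 ± 0.28 and 0.14 ± 0.28 at E18.5, P15 and P90, less than 1.5 times its error each time.

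Array by array, 2 members did not overlap between genotypes at E18.5 (Nefh and Scrt2, higher in Igf1-/-, as were 7.95% of all genes). Isl1 did so at P15 (8.75% of all genes), and none did at P90 (6.42%). No member lay wholly lower in Igf1-/- at any age, where 11.7%, 7.75% and 4.06% of genes did. The E18.5 separations depended on the scaling. With arrays scaled by their medians, Nefh overlapped (4.88 in Igf1-/- array 3 against 4.93 in Igf1+/+ array 1). Without normalization Nefh overlapped again, as did Scrt2 (4.02 in Igf1-/- array 1 against 4.40 in Igf1+/+ array 2). Isl1 at P15 stayed apart in both.

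**Figure D2:**
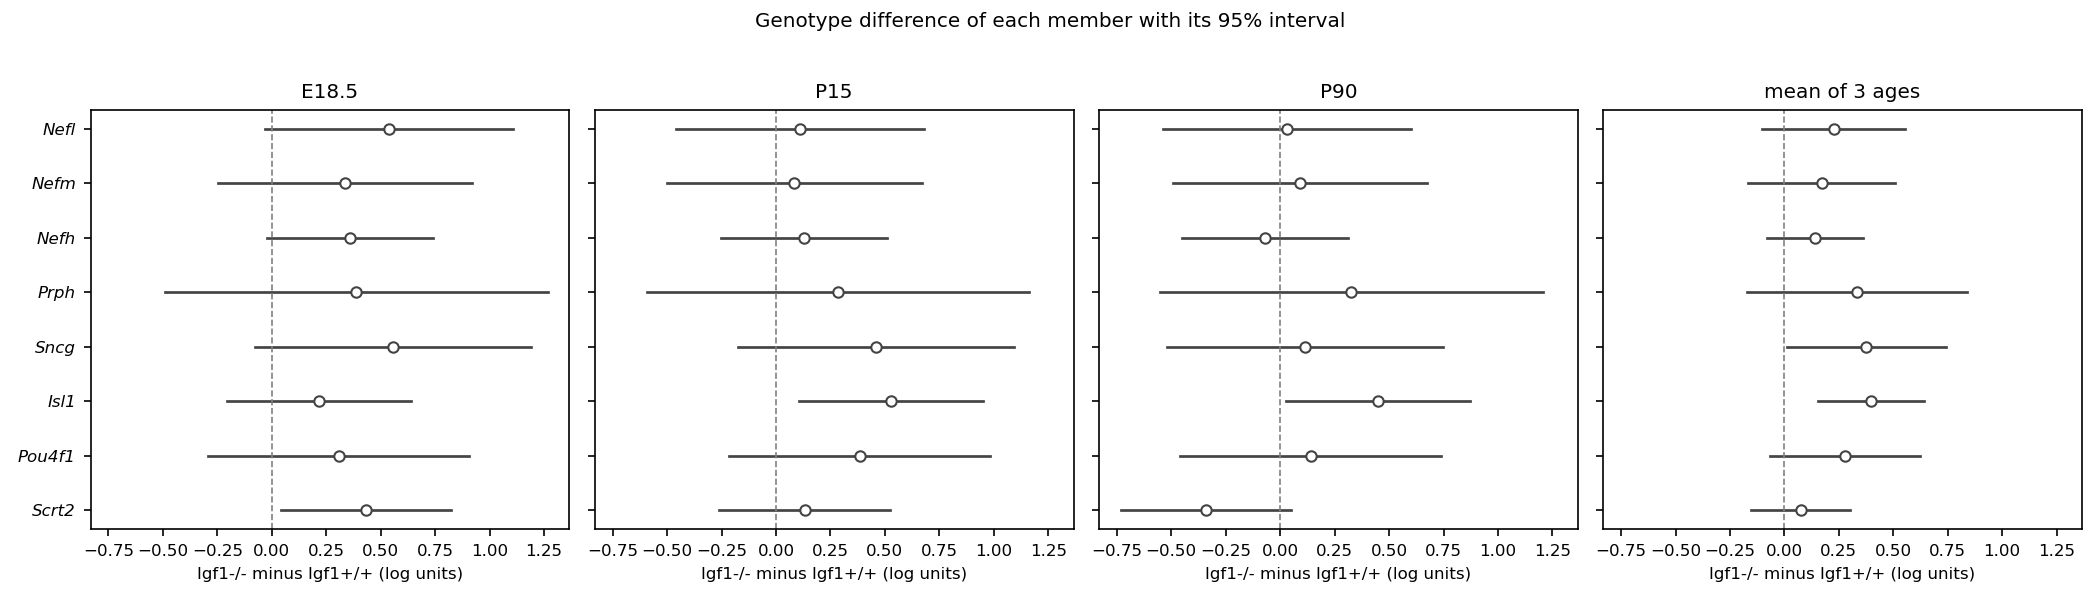
Igf1-/- minus Igf1+/+ in log units (horizontal axis) for each gene at E18.5, P15, P90 and averaged over the ages, with the 95% interval of the limma fit; open circles did not pass the test over all genes. The 8 E18.5 values lie between 0.22 and 0.56, and the P90 values between -0.34 and 0.45.

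The E18.5 differences of most members depended on a single array. Igf1-/- array 2 was the highest of the 6 arrays of its age for all 8 members, which held for 18.6% of all genes. Without it the median difference of the 8 was 0.15, and without Igf1-/- array 3 it was 0.66. Nefm turned to -0.06 without array 2, and Nefl and Nefh fell to 0.15 and 0.14. Prph, Sncg and Pou4f1 were at 0.02, 0.23 and 0.10 without it, while Isl1 and Scrt2 kept most of their difference, at 0.17 and 0.33. Across the alternatives that left out no single array, however, Isl1 fell as low as 0.077 and Scrt2 as low as 0.091. The mean over the 8 genes was 5.03, 5.59 and 4.59 in Igf1-/- arrays 1, 2 and 3, against 4.82, 4.58 and 4.63 in Igf1+/+, so array 2 was on top and array 3 within the Igf1+/+ range.

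The same array stood apart for adipocyte genes. Ucp1, the uncoupling protein of brown fat, was at 2.79, 6.47 and 2.39 in E18.5 Igf1-/- arrays 1, 2 and 3, against 2.39, 2.25 and 2.67 in Igf1+/+. The mean of 8 adipocyte genes was 5.21 in array 2 and 3.26 to 3.57 in the other 5 arrays of E18.5. All 12 skeletal muscle genes had higher means in Igf1-/- at E18.5 (45.6% of all genes), with 4 past the test (0.0602% of all genes upward). Their list means did not overlap between genotypes, with levels of 7.39, 7.64 and 7.22 in Igf1-/-, against 6.32, 6.83 and 6.74 in Igf1+/+. At P15 and P90, however, 0 of the 12 muscle genes had higher means in Igf1-/- (53.7% and 53.6% of all genes). Their medians were -0.50 and -0.24, with 0 called. Of the 8 adipocyte genes 0 had higher means in Igf1-/- at P15 (median -0.54) and 8 at P90 (median 0.34), with 0 called. The part that the tissue taken at dissection plays in the neuronal values was not tested.

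At P15 the low array was Igf1+/+ array 1, the lowest of 6 for 7 members, all but Scrt2, as it was for 15.4% of all genes. The mean of the 8 genes was 5.05, 4.84 and 4.96 in P15 Igf1-/-, against 4.38, 4.87 and 4.82 in P15 Igf1+/+. Without Igf1+/+ array 1 the median difference of the 8 was 0.11, and the differences of Nefl and Nefm turned to -0.0044 and -0.07. The same array had the highest muscle and adipocyte list means of its age, 6.53 and 4.73. Their part in the low values was not tested.

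At P90 the spread was wider within Igf1+/+ for 6 members and within Igf1-/- for Nefm and Pou4f1 (SD 0.19 and 0.32, against 0.12 and 0.07 in Igf1+/+). Igf1+/+ array 1 was the highest of 6 for Nefl, Nefh, Prph and Sncg, and its array 2 the lowest of 6 for Nefl, Prph, Isl1 and Sncg, which held for 15.1% and 19.5% of all genes. Without array 2 the P90 median turned to -0.07, with Nefl, Prph and Sncg at -0.09, -0.16 and -0.12. Both arrays are among the 4 at the top of the third component.

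All members but Scrt2 moved together within groups. The deviation of a gene from its group means had a Pearson correlation with the mean deviation of the other 7 of 0.92 for Sncg, 0.89 for Nefl, 0.88 for Nefm, 0.75 for Nefh, 0.74 for Prph, 0.67 for Isl1 and 0.60 for Pou4f1, over 18 arrays. For Scrt2 it was -0.21. Over the levels themselves, age included, the correlation was 0.91 for Sncg and 0.68 for Pou4f1 but 0.09 for Isl1. These points share their arrays and scaling, and the values are given as a description.

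**Figure D3:**
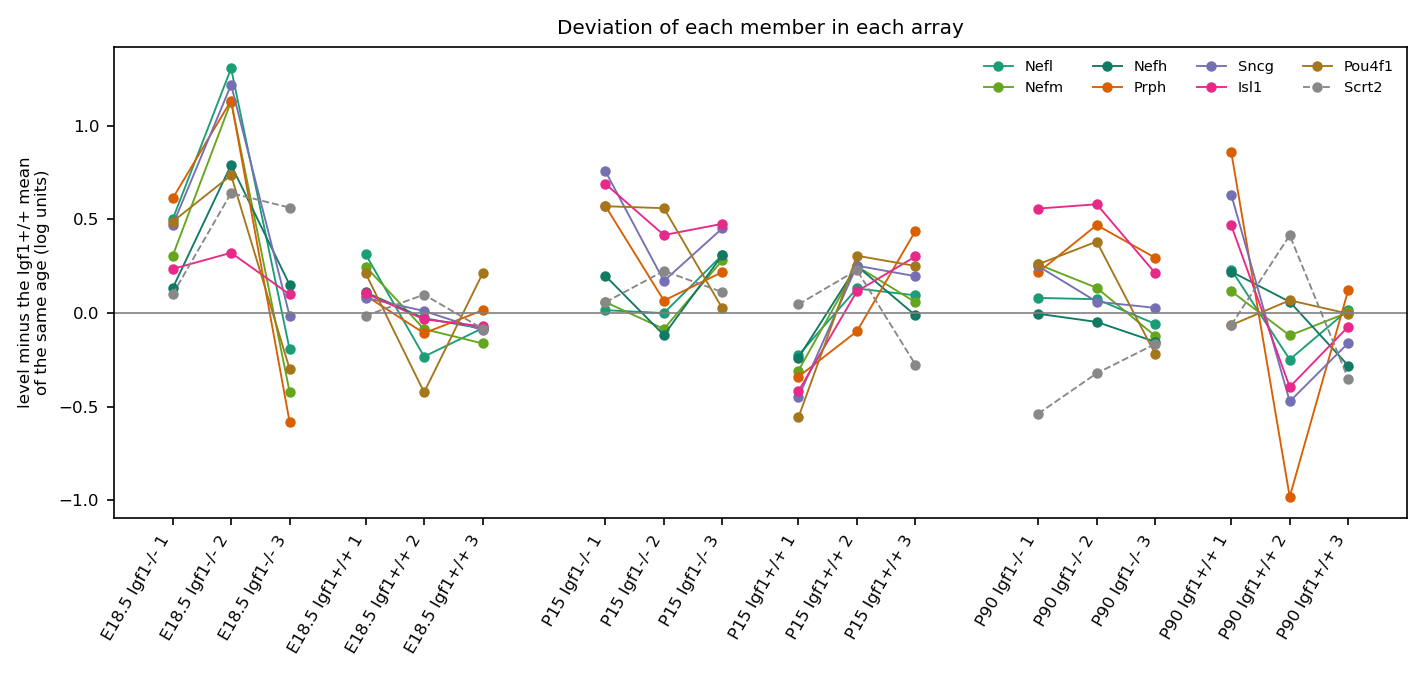
Level of each gene minus the Igf1+/+ mean of the same age (vertical axis, log units) in the 18 arrays, with lines joining the 3 arrays of a group. Except for Scrt2 (dashed) the genes tend to rise and fall together, high in E18.5 Igf1-/- 2 (though Isl1 is higher in P15 Igf1-/- 1) and often low in P15 Igf1+/+ 1 and P90 Igf1+/+ 2.

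With age, Nefh rose and Isl1 fell between E18.5 and P15 in both genotypes. In Igf1-/- mice Nefh rose by 0.69 ± 0.18 log units (2.00-fold in natural logs, 1.62-fold in log2; adjusted p = 0.0057), and in Igf1+/+ mice by 0.92 ± 0.18 (2.51-fold or 1.89-fold; adjusted p = 0.00061). Isl1 fell by 1.05 ± 0.20 in Igf1-/- (adjusted p = 0.00054) and by 1.36 ± 0.20 in Igf1+/+ (adjusted p = 4.6e-05). The P15 and E18.5 arrays of both genes did not overlap in either genotype, and the calls held under each alternative tried and without each single array. The rise of Nefl passed in Igf1+/+, at 0.84 ± 0.27 (adjusted p = 0.019), and was 0.41 ± 0.27 in Igf1-/- (adjusted p = 0.24). Scrt2 fell in Igf1-/-, with a difference of -0.57 ± 0.18 (adjusted p = 0.022), and the value was -0.26 ± 0.18 in Igf1+/+ (adjusted p = 0.28).

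In Igf1-/- 1 member was called higher and 2 lower at P15 than at E18.5, against 20.3% and 20.5% of all genes, and in Igf1+/+ 2 higher and 1 lower, against 19.7% and 21.9%. Array by array, Nefh was higher and Isl1 and Scrt2 lower at P15 without overlap in Igf1-/- (24.5% and 26.5% of all genes), and Nefh and Nefl higher and Isl1 lower in Igf1+/+ (26% and 31.7%). Both kinds of count are near the background. The difference between genotypes in the change was itself not called for any member, with -0.43 ± 0.38 for Nefl (adjusted p = 0.77), -0.30 ± 0.26 for Scrt2 (adjusted p = 0.76), 0.31 ± 0.28 for Isl1 (adjusted p = 0.78) and -0.23 ± 0.25 for Nefh (adjusted p = 0.82). Of all genes 0.015% passed that test as positive and 0.13% as negative.

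The Nefl and Scrt2 calls depended on single arrays. For Nefl in Igf1+/+ the adjusted p was 0.075, 0.056, 0.061 and 0.058 without E18.5 array 2, E18.5 array 3, P15 array 2 or P15 array 3. For Scrt2 in Igf1-/- it was 0.09, 0.08, 0.067 and 0.057 without E18.5 array 2, E18.5 array 3, P15 array 1 or P15 array 3, and the value shrank to -0.22 with the term for the 4 arrays and to -0.24 without normalization. Conversely, without E18.5 Igf1-/- array 2 the rises of Nefl (0.80, adjusted p = 0.0073) and Nefm (0.58, adjusted p = 0.042) in Igf1-/- passed. In Igf1+/+ Nefm differed by 0.44 ± 0.27 between P15 and E18.5 (adjusted p = 0.22), in the direction of the other subunits. Prph, Sncg and Pou4f1 had differences of -0.48, -0.25 and 0.12 in Igf1-/- and of -0.38, -0.15 and 0.05 in Igf1+/+, none past the test.

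From P15 to P90 most members had higher means, but 1 call was made in Igf1+/+ and none in Igf1-/-. In Igf1+/+ all 8 means were higher at P90, where 51.6% of all genes were, with a median of 0.34 against 0.01 over all genes. Sncg rose by 1.09 ± 0.30 (2.97-fold in natural logs, 2.13-fold in log2; adjusted p = 0.023) and was the 1 member called, against 8.08% of all genes called higher and 9.78% lower. In Igf1-/- 7 of 8 means were higher (52.8% of all genes) with a median of 0.25, and none was called (6.12% of genes higher and 6.83% lower); 1 member, Sncg, had an unadjusted p under 0.05 (13.1% of genes). Sncg differed by 0.74 ± 0.30 there (adjusted p = 0.12), and the difference between genotypes in this change was -0.35 ± 0.42 (adjusted p = 0.88); over all genes that test was passed by 0.01% as positive and 0.00502% as negative. Array by array, Nefh, Prph, Isl1 and Sncg of Igf1-/- lay higher at P90 without overlap (16.6% of all genes), and Sncg alone did so in Igf1+/+ (16.9%).

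The Sncg call did not hold in several settings. Without P15 Igf1+/+ array 1, the low array of that age, the rise was 0.86 (adjusted p = 0.086), and without P90 Igf1+/+ array 1, the high array, it was 0.77 (adjusted p = 0.097). It was 0.96 with the term for the 4 arrays (adjusted p = 0.15), 1.06 with sex-linked signal in the model (adjusted p = 0.14) and 1.09 in a fit of the compared arrays only (adjusted p = 0.077). Nefh and Isl1 of Igf1+/+ differed by 0.46 ± 0.18 (adjusted p = 0.084) and 0.50 ± 0.20 (adjusted p = 0.094) and did not pass. Scrt2 was the exception in Igf1-/-, with a difference of -0.16 ± 0.18.

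**Figure D4:**
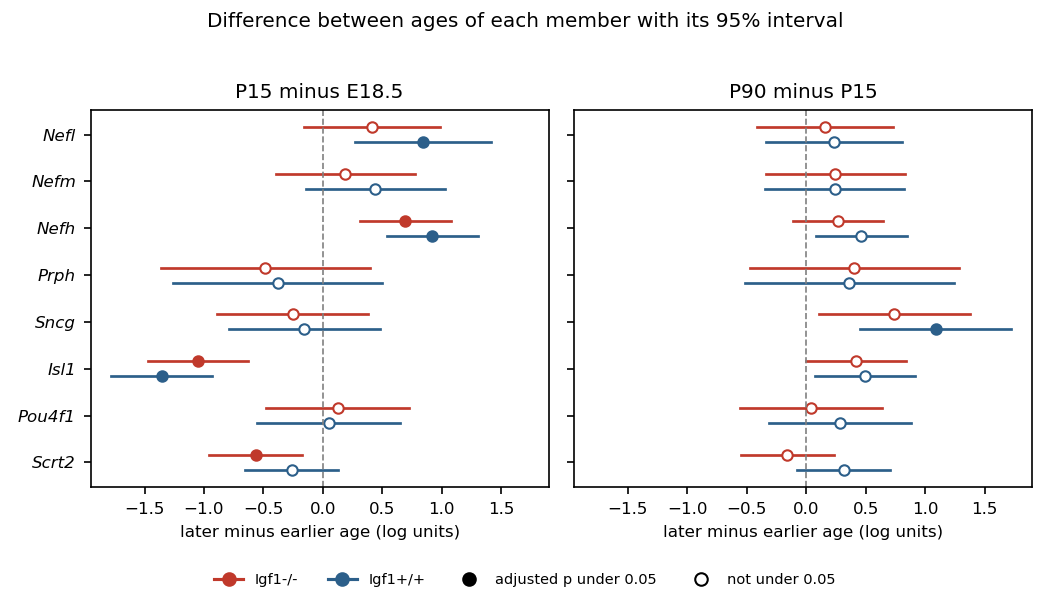
Later minus earlier age in log units (horizontal axis) for each gene in Igf1-/- (red) and Igf1+/+ (blue), with the 95% interval of the limma fit; filled circles passed the test over all genes. Between E18.5 and P15 Nefh is filled to the right and Isl1 to the left in both genotypes, and between P15 and P90 Sncg of Igf1+/+ is the filled circle.

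Markers of brain tissue moved with the first age step. All 17 measured hindbrain and cerebellum genes were called higher at P15 than at E18.5 in both genotypes, with medians of 2.12 in Igf1-/- and 2.08 in Igf1+/+. Of all genes, 20.3% were called higher in Igf1-/- and 19.7% in Igf1+/+. Gabra6, a GABA receptor subunit of cerebellar granule cells, rose by 5.53 ± 0.15 in Igf1-/- and by 5.44 ± 0.15 in Igf1+/+ (adjusted p = 8.7e-12 and 1.1e-11). Its E18.5 levels of 2.21 to 2.55 in Igf1-/- and 2.33 to 2.70 in Igf1+/+ lay under 3.40, below which genes were called dim, so the size of its rise is uncertain. The mean of the list was 6.08 to 6.16 in P15 Igf1-/-, 6.0 to 6.24 in P15 Igf1+/+, 3.66 to 3.92 in E18.5 Igf1-/- and 3.71 to 3.72 in E18.5 Igf1+/+. The P15 arrays thus held far more signal for these genes than the E18.5 arrays, and its part in the rise of Nefh and Nefl was not tested. Isl1 fell in the same arrays. Between genotypes this list had medians of 0.08, 0.01 and -0.03 at the 3 ages, with 0 of 17 called at each.

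Inner ear markers moved the other way. Of 8 genes of the otoconia and acellular membranes, 7 were called lower and 1 higher at P15 than at E18.5 in Igf1-/-, and 6 lower and 0 higher in Igf1+/+. Of 14 hair cell genes, 8 were lower and 1 higher in Igf1-/-, and 9 lower and 0 higher in Igf1+/+. The otoconia list averaged 4.60 to 4.66 in P15 Igf1-/- and 4.27 to 4.64 in P15 Igf1+/+, against 5.64 to 5.96 in E18.5 Igf1-/- and 5.76 to 5.95 in E18.5 Igf1+/+. Schwann cells, the glia of the nerve, gave 5 higher and 3 lower of 12 in Igf1-/- and 4 higher and 4 lower in Igf1+/+. Their list means were between 4.64 and 5.05 in all 12 arrays of these ages. That mean joins genes that rose with genes that fell, so its narrow range does not show a steady Schwann signal. Motor and autonomic neuron genes, which could come from facial or autonomic nerves, gave 1 higher and 3 lower of 10 in Igf1-/- and 0 higher and 2 lower in Igf1+/+, with list means of 2.76 to 3.12 across the 18 arrays and 5 of the 10 genes dim. The counts of these lists stand beside 20.3% higher and 20.5% lower of all genes in Igf1-/-, and 19.7% and 21.9% in Igf1+/+. The Schwann and motor lists are short, and their counts are given as a description.

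**Figure D5:**
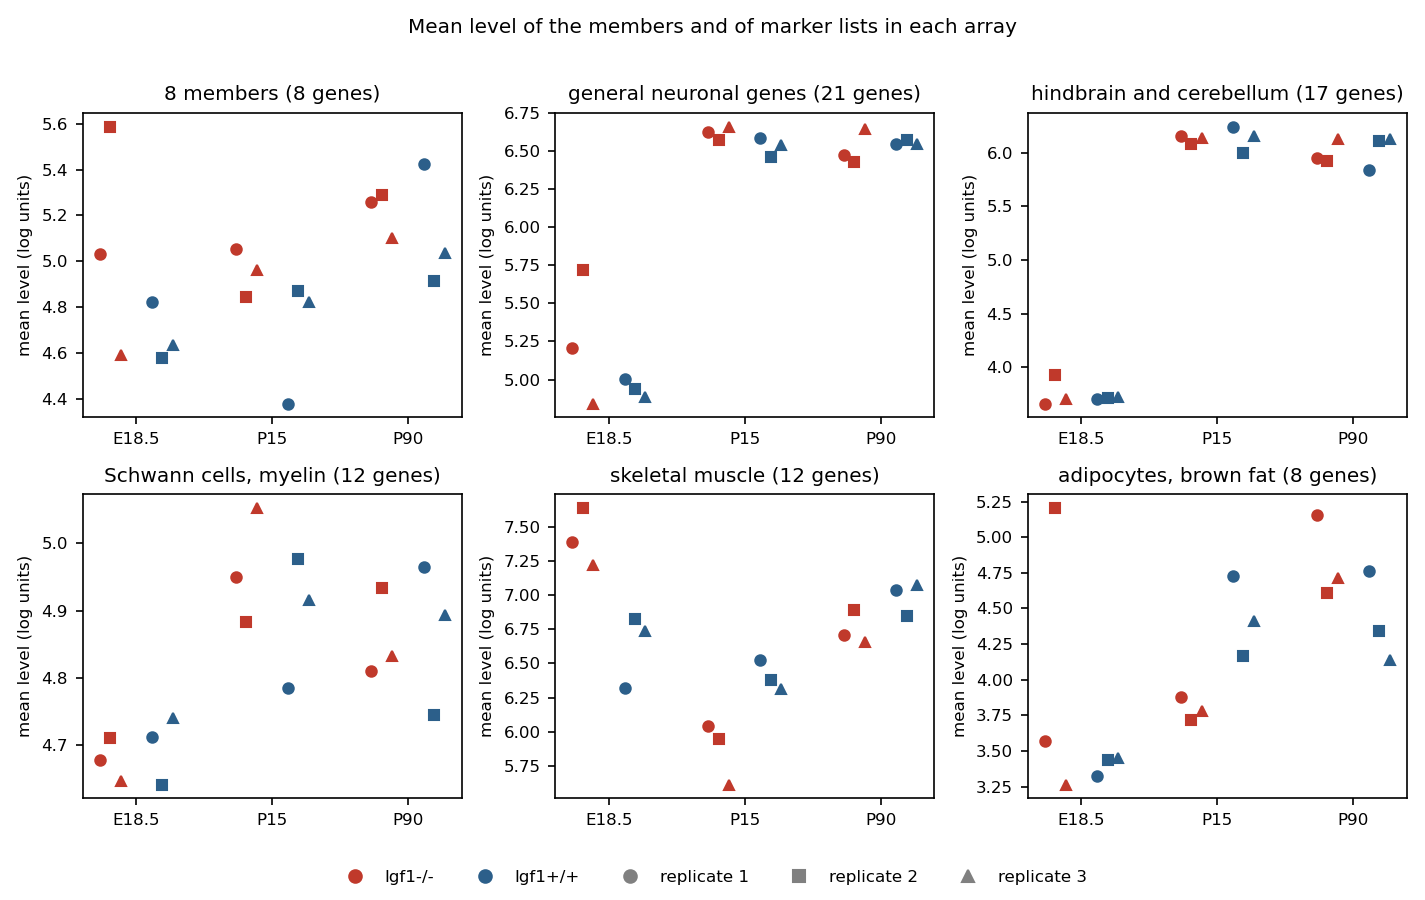
Mean level (vertical axis, log units, a separate scale for each panel) of the 8 members and of 5 marker lists in each array at E18.5, P15 and P90, Igf1-/- in red and Igf1+/+ in blue. The hindbrain and general neuronal means are far higher in all postnatal arrays than at E18.5, the mean of the 8 members is not, and E18.5 Igf1-/- replicate 2 is apart in the adipocyte panel.

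Neuronal genes beyond the members were grouped in 3 lists. Of 21 general neuronal genes of cytoskeleton, synapse and RNA binding, 20 had higher means in Igf1-/- at E18.5 (45.6% of all genes). Their median was 0.32, and 0 passed. The smallest p belonged to Stmn3, a microtubule regulator (0.55 ± 0.17, adjusted p = 0.21), followed by Sncb, beta-synuclein (0.41), Thy1, a surface protein of neurons (0.31), and Stmn2, a growth cone protein (0.64). Stmn2 was at 6.13, 6.85 and 5.37 in E18.5 Igf1-/- arrays 1, 2 and 3, against 5.67, 5.42 and 5.34 in Igf1+/+, so that Igf1-/- arrays 2 and 1 were on top, as for the mean of the members. At P15 and P90 the list medians were 0.10 and -0.04, again with 0 called. With age, 20 of the 21 were called higher at P15 than at E18.5 in each genotype, with medians of 1.28 in Igf1-/- and 1.69 in Igf1+/+. Of all genes, 20.3% were called higher in Igf1-/- and 19.7% in Igf1+/+. Among the 20 was Syt1, the calcium sensor of synaptic vesicles (2.38 ± 0.16 in Igf1-/- and 2.53 ± 0.16 in Igf1+/+).

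The receptors, channels and transmitter genes of sensory neurons (21 measured) had 13 higher and 8 lower means in Igf1-/- at E18.5. Their median was 0.29 with 0 called, and 45.6% of all genes had higher means. Calb2, calretinin, a calcium-binding protein of calyx-forming vestibular neurons, was at 3.79, 2.92 and 2.74 in E18.5 Igf1-/- arrays 1, 2 and 3, against 3.82, 3.90 and 3.83 in Igf1+/+ (-0.70 ± 0.25, adjusted p = 0.29). Its Igf1-/- arrays lay below the Igf1+/+ arrays, opposite to the members, and array 1 was close to them. Calb1, calbindin, differed by -0.42, Pvalb, parvalbumin, by 0.41 and Slc17a7, a vesicular glutamate transporter, by 0.51, with adjusted p of 0.31, 0.22 and 0.35. Between E18.5 and P15, 11 of the 21 were called higher and 1 lower in each genotype. Of all genes, 20.3% were called higher and 20.5% lower in Igf1-/-, and 19.7% and 21.9% in Igf1+/+. Pvalb rose by 2.23 ± 0.13 in Igf1-/- and by 2.97 ± 0.13 in Igf1+/+, and Calb1 by 3.95 ± 0.15 in Igf1-/- and 3.40 ± 0.15 in Igf1+/+. Both are also known from cerebellar neurons. At P15 Pvalb was at 7.32, 7.43 and 7.52 in Igf1-/-, against 7.86, 7.69 and 7.72 in Igf1+/+, opposite to its direction at E18.5. The part of other tissues, muscle among them, in these values was not tested.

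Of 14 measured transcription factors of inner ear and sensory neurogenesis, 9 had higher and 5 lower means in Igf1-/- at E18.5. Their median was 0.10 with 0 called, and 45.6% of all genes had higher means. Neurod1, a basic helix-loop-helix factor required for ear ganglion neurons in mice, was at 2.40, 3.56 and 2.62 in Igf1-/-, against 1.52, 2.46 and 2.20 in Igf1+/+ (0.80 ± 0.26, adjusted p = 0.25), with 5 of these 6 values under the level of dim genes. After birth it was at 8.08, 8.17 and 8.18 in P15 Igf1-/- and at 8.06, 8.01 and 8.04 in P15 Igf1+/+. The hindbrain and cerebellum genes were also higher in the P15 arrays. The part of brain tissue in the rise of Neurod1 and other factors of this list was not tested. Between E18.5 and P15, 9 factors were called higher and 2 lower in Igf1-/-, against 20.3% and 20.5% of all genes. In Igf1+/+ 8 were called higher and 2 lower, against 19.7% and 21.9%. The lower ones included Eya1, a coactivator of ear development, which fell by 1.31 in Igf1-/- and by 1.55 in Igf1+/+. At P90, 13 of the 14 had higher means in Igf1-/- (53.6% of all genes), with a median of 0.17 and 0 called. Gata3, a zinc finger factor of the ear, differed by 0.58 ± 0.19 at that age (adjusted p = 0.28 in the limma fit).

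The genes whose levels most resembled the mean of the 8 members over the 18 arrays were Ppp1r1c (Pearson r = 0.91), Avil (0.89), Cpne6 (0.85), Scn7a (0.85) and Tac1 (0.83). Avil encodes advillin, an actin-binding protein of sensory neurons, Tac1 the precursor of substance P, and Scn7a an atypical sodium channel subunit. Ppp1r1c was at 5.04, 5.83 and 4.02 in E18.5 Igf1-/- arrays 1, 2 and 3, against 4.66, 4.54 and 4.45 in Igf1+/+. Avil was at 4.72, 5.50 and 4.40 in the same Igf1-/- arrays, against 4.72, 4.56 and 4.44 in Igf1+/+. Both were thus highest and lowest in the Igf1-/- arrays that were highest and lowest for Prph. Over deviations from the group means the 5 closest were Ppp1r1c (0.95), Gclm (0.93), Avil (0.89), Fech (0.88) and Kpna1 (0.88), of which Gclm and Fech encode enzymes of glutathione and haem synthesis. Averaged over the ages, Ppp1r1c differed between genotypes by 0.38 ± 0.23, Avil by 0.29 ± 0.17, Gclm by -0.15 ± 0.05 and Fech by -0.31 ± 0.14. All these correlations rest on 18 arrays in 6 groups that share age and array effects, and they are descriptions.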

How the data were processed

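Vestibular organ RNA was labelled from 100 ng of total RNA and hybridised to Affymetrix Mouse Gene 1.1 ST arrays, per the labels' protocols. The authors deposited 1 table of log-scale values (scores of unstated base) for 28853 probe sets in 18 arrays; the way probes were summarized and the log base were not given in any source used here. Age, genotype and replicate came from the sample titles. The description field of the P15 and P90 Igf1+/+ samples names Igf1-/-, whereas their title, source and genotype fields give Igf1+/+, which was followed. Scan dates and batches are not known here.

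The arrays were quantile normalized. Probe sets with 1 symbol (21789) were named through the platform annotation and RefSeq of GRCm38.p6, and the probe set with the highest mean stood for a gene, which left 19938 genes with no filter. A single limma model (version 3.58.1 in R 4.3.3) held all 18 arrays with 1 mean for each group and 12 residual plus 2.98 prior degrees of freedom; p-values were adjusted by Benjamini-Hochberg over all genes. The planned test took the values as normalized log2; since the array medians differed, normalization was added and differences are given in log units. The 20% of genes with the lowest highest group mean (under 3.40) were called dim. The number of arrays limits the precision.

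The members and the gene lists were chosen with earlier results of these data known. Named were all members, the 4 genes of each list with the smallest p at E18.5 and the 2 in other comparisons, Igf1, Ucp1, and the 5 most similar genes by each measure; only part of these are printed. Alternatives were median scaling, no normalization, mean of probe sets, dim genes left out, trend and robust estimation, a term for 4 arrays that stand apart, sex-linked signal as a covariate, only the compared arrays, the replicate number as a block, and leaving out each array. The fit was tested on simulated data.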

Additional observations from a re-analysis of the deposited data

How the results depend on the processing

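No member passed the test between genotypes under any of the 27 alternatives, and the P15 minus E18.5 calls of Nefh and Isl1 held in both genotypes under all of them. Other calls were fragile. Members called from P15 to P90 in Igf1+/+ numbered 2 with median scaling, 4 without normalization, and 0 with a term for the 4 arrays, with sex-linked signal or with only the compared arrays, and 0 to 2 when 1 array was left out, against 1. In Igf1-/- they numbered 2 without normalization and 1 with only the compared arrays, against 0. With deposited values the median of all genes was up to 0.39 (P15 to P90, Igf1-/-), against 0.02 after normalization, and the median of the members, 0.25, became 0.58 there, and that from E18.5 to P15 in Igf1-/-, -0.06, became 0.23. Leaving out 1 array, this E18.5 to P15 median ranged from -0.35 to 0.21, and the E18.5 genotype median from 0.15 to 0.66.

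Directions turned for differences that had not passed. Without normalization, Nefh between genotypes at P90 was 0.11, Sncg from E18.5 to P15 was 0.063 in Igf1-/- and 0.045 in Igf1+/+, and Scrt2 from P15 to P90 in Igf1-/- was 0.29. With median scaling, Pou4f1 from E18.5 to P15 in Igf1+/+ was -0.18, and from P15 to P90 Nefl was -0.014 in Igf1-/- and -0.040 in Igf1+/+ and Nefm -0.0072 in Igf1+/+. With the term for 4 arrays, the P90 genotype difference was 0.19 for Nefh and 0.0014 for Scrt2, and Scrt2 from P15 to P90 in Igf1+/+ was -0.029. With sex-linked signal, P90 genotype differences were 0.17 for Nefh and -0.18 for Pou4f1, and Pou4f1 from P15 to P90 in Igf1-/- was -0.045.

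Leaving out 1 array, genotype differences ranged from -0.058 to 0.72 for Nefm at E18.5. At P15 they ranged from -0.0044 to 0.17 for Nefl, -0.069 to 0.21 for Nefm and -0.0064 to 0.25 for Scrt2. At P90 they ranged from -0.21 to 0.042 for Nefh, -0.092 to 0.15 for Nefl, -0.16 to 0.76 for Prph and -0.12 to 0.43 for Sncg. From E18.5 to P15, Igf1-/- gave -0.19 to 0.58 for Nefm, -0.18 to 0.34 for Pou4f1 and -0.54 to 0.078 for Sncg, and Igf1+/+ gave -0.16 to 0.33 for Pou4f1 and -0.28 to 0.070 for Sncg. From P15 to P90, Pou4f1 in Igf1-/- ranged from -0.14 to 0.22 and Prph in Igf1+/+ from -0.067 to 0.85. The cause was not tested for any of these.

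Same-numbered arrays of the 2 genotypes had deviations that correlated between -0.19 and 0.24. The labels give no pairing, and these values cannot show whether there was any, since differently numbered arrays were not compared. A replicate block changed no call, with 0, 0 and 0 members called between genotypes at the 3 ages. It could not change the median genotype differences of 0.37, 0.21 and 0.10, since every block held the genotypes equally. Only the p-values could move. Likewise each member has 1 probe set, so the mean of probe sets could not change its levels. These 2 alternatives thus say nothing on how stable the differences are. With 3 arrays a group and no detection calls in the file, dim genes such as Pou4f1 and small differences remain unresolved.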
